A study of Mus musculus with 36 samples.

Results

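The comparison described here set mouse embryonic stem cells (ESCs) of an MLL2 dTAG line against wild-type ESCs by RNA sequencing. Its members were the 6 libraries that the deposited count table names for these groups, 3 per group, of 36 samples in the series, and every gene that passed a filter on low counts. Of 51734 gene symbols in the table, 31920 had a count in these libraries and 17675 were tested. Both groups were E14 ESCs, a male mouse line, grown in serum replacement medium with LIF, the cytokine that keeps ESCs undifferentiated. One group was wild type and the other carried the MLL2 dTAG genotype. A dTAG is a degron, a small domain fused to a protein so that the compound dTAG-13 can recruit a ubiquitin ligase and have the fusion degraded. The treatment label reads dTAG-13 for the wild-type libraries as well as for the MLL2 dTAG libraries, so the compound was shared and the genotype differed. The compound is also given for the libraries set beside these, ESCs of an MLL3/4 dCD line and neural progenitor cells. The protocol gives 2 uM from day 1 of neural differentiation with harvest on day 4, and no duration is given for the undifferentiated cells. Each genotype was represented by 1 line, and nothing in the labels says whether replicates were separate cultures. The p-values therefore measure only the spread between these libraries, and a property of the line cannot be told apart from the loss of MLL2 protein. MLL2 protein itself was not measured in these files.

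MLL2, encoded by Kmt2b, is a histone methyltransferase that places H3K4 trimethylation at CpG-rich promoters. In ESCs it is best known for marking bivalent promoters, which carry H3K4 trimethylation together with the Polycomb mark H3K27 trimethylation and belong mostly to developmental regulators with low expression. MLL3 and MLL4, encoded by Kmt2c and Kmt2d, act mainly on H3K4 monomethylation at enhancers.

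The change was broad and mostly small. Levels are given as CPM, each library's counts scaled to a common library size, and a gene is called when its Benjamini-Hochberg adjusted p from edgeR's quasi-likelihood test is under 0.05. Of the 17675 genes tested, 10743 (60.8%) were called, 5400 higher (30.6%) and 5343 lower (30.2%) in the MLL2 dTAG line. A change of at least 2-fold was rarer, with 1166 genes higher (6.6%) and 1804 lower (10.2%). The 2 groups did not overlap for 11624 genes (65.8%), and the median log2 fold change of all tested genes was -0.003. Every list count and statement of overlap below is to be read beside these shares. Library totals ran from 19430860 to 38723113 counts. Wild-type replicates spread more than MLL2 dTAG replicates, with a biological coefficient of variation of 6.68% against 2.7%. Wild-type replicate 2 stood apart: its deviations from the group mean followed transcript length (Spearman rho 0.581 across genes, against -0.424 and -0.36 in replicates 1 and 3). Without it 11038 genes were called.

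**Figure D1:**
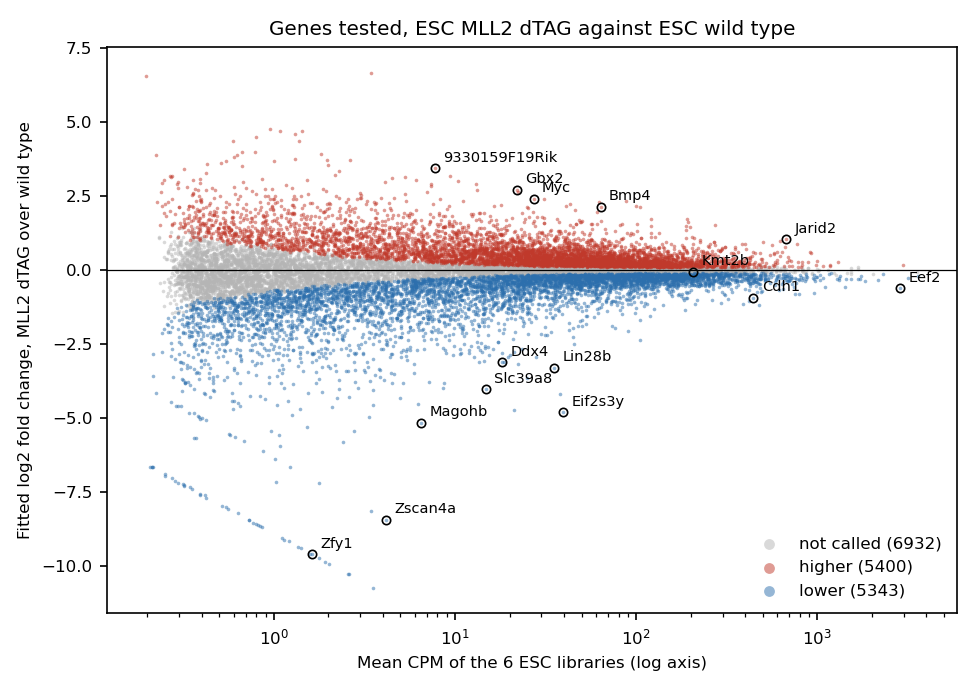
Each point is 1 tested gene, placed by its mean CPM over the 6 ESC libraries (log axis) and its fitted log2 fold change, MLL2 dTAG over wild type; red is called higher (5400), blue called lower (5343) and grey not called. Falls reach further than rises, and the diagonal row at the lower left holds genes with no count in the MLL2 dTAG libraries, whose fitted values are not bounds.

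Shares of large changes are given by level of expression. Protein-coding genes were ranked by CPM per kilobase of transcript in the ESC libraries of the MLL3/4 dCD line. This is an E14 line with edited, catalytic-dead MLL3 and MLL4, also given dTAG-13, that does not enter this comparison. They were cut into 5 level classes of near equal size. In the lowest class, up to 1.06 CPM per kilobase, 25.3% of 2849 tested genes fell by at least 2-fold and 15.3% rose by at least 2-fold. In the highest class, above 27.8 CPM per kilobase, these shares were 0.842% and 0.878%. A gene low in the MLL3/4 dCD line could enter the lowest class through the count filter in the group where it was high, which builds large fold changes into that class, so the shares are a description. Over all 14243 protein-coding genes tested they were 10.1% lower and 6.19% higher. By chromosome, of the 592 tested genes on the X, 221 were called lower (37.3%) and 136 higher, and all 7 tested genes on the Y were lower.

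**Figure D2:**
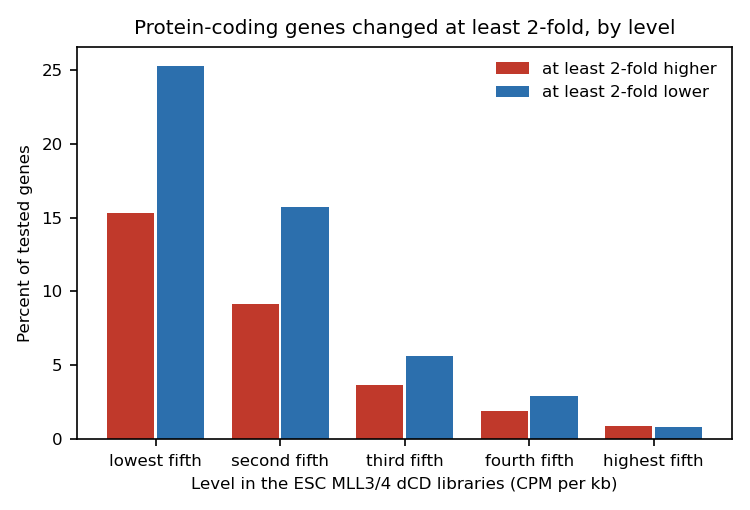
Bars give the percent of tested protein-coding genes that rose (red) or fell (blue) by at least 2-fold, in 5 classes of their level in the ESC MLL3/4 dCD libraries (CPM per kilobase, lowest class at the left). Both shares drop from the lowest class (15.3% and 25.3%) to the highest (0.878% and 0.842%).

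The transcript of the targeted gene did not change detectably. Kmt2b stood at 195, 230.5 and 201 CPM in the wild-type libraries and 202, 197 and 209.7 CPM in the MLL2 dTAG libraries (log2 fold change -0.05, SE 0.06, adjusted p = 0.506), and the groups overlapped. Without wild-type replicate 2 the sign turned (0.032, not called). A degron acts on the protein, so this level does not check the genotype label. Kmt2c rose from 178, 216 and 174 CPM to 269, 279.9 and 274 CPM (log2 fold change 0.53, SE 0.06, adjusted p = 2.81e-06), with no overlap between groups. Kmt2d stood at 148, 226 and 171 CPM in the wild-type libraries and 226, 216 and 228 CPM in the MLL2 dTAG libraries (log2 fold change 0.29, SE 0.10, adjusted p = 0.0192), but the groups overlapped and the call depended on single libraries. Its adjusted p was 0.0859 without wild-type replicate 1, 0.105 without wild-type replicate 3, 0.0552 without MLL2 dTAG replicate 1 or 3, and 0.178 with the DESeq2 Wald test on all 6. Of 18 tested genes for H3K4 methyltransferases and their complex partners, 7 were higher and 2 lower. Setd1b, another H3K4 methyltransferase, rose from 15.9, 19 and 17.2 CPM to 41.3, 41.8 and 42.7 CPM (log2 fold change 1.26, SE 0.07, adjusted p = 3.06e-10). Men1, encoding menin, the subunit that MLL2 shares with MLL1, rose from 57.2, 54.5 and 57.4 CPM to 84.9, 88.4 and 86.5 CPM (log2 fold change 0.62, SE 0.05). Setd7, a lysine methyltransferase outside the MLL complexes, fell from 69.7, 83.5 and 68.8 CPM to 31.1, 32.4 and 33.5 CPM (log2 fold change -1.20, SE 0.07). The lower count was 1 without MLL2 dTAG replicate 2 or 3, which removed the small fall of Ash2l.

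Among called genes without overlap between the groups, the steepest fall at a mean level of 5 CPM or more was that of Magohb. This gene is a paralog of Magoh, which encodes a core protein of the exon junction complex that is left on spliced messenger RNA. Its level dropped from 13.5, 9.52 and 14.9 CPM to 0.358, 0.335 and 0.358 CPM (log2 fold change -5.15, SE 0.23, adjusted p = 3.41e-11), so every MLL2 dTAG library lay far under every wild-type library. Magoh itself was at 94.8, 71.2 and 90.2 CPM in the wild-type libraries and 93.9, 88.9 and 84 CPM in the MLL2 dTAG libraries (log2 fold change 0.06, SE 0.08, adjusted p = 0.522), and the groups overlapped. The 2 genes are near copies, so reads may have been split between them. Of 15 tested genes for the exon junction complex and nonsense-mediated decay, 9 were lower and 2 higher (median log2 fold change -0.27). After Magohb the falls in this list were small, such as -0.48 for Upf1, the helicase of nonsense-mediated decay. In NPCs of the same lines, which are other libraries, Magohb was also lower (log2 fold change -8.32). The 250 bases upstream of the Magohb start are shown because MLL2 reads CpG-rich promoters through a CXXC domain that binds unmethylated CpG. The stretch is chr6:131293245-131293494 on the minus strand of GRCm38.p6 (RefSeq), 5′ to 3′, with CG pairs in capitals. It holds 16 CG pairs, against a median of 6 over 27025 gene symbols with such a window, whether tested here or not. The highest count over a gene's RefSeq windows was 25 for Magohb and 22 for Magoh, which was not called. The count was not compared with tested genes only.
Magohb: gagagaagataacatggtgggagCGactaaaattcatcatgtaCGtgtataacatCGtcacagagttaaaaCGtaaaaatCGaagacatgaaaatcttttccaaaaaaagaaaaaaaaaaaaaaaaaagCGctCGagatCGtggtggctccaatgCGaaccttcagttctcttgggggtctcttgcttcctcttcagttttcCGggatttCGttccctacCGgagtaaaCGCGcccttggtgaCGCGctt

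Genes of the Y chromosome fell. Their summed level over the list went from 196 CPM in wild type to 9.59 CPM, and all 5 tested list members were called lower (median log2 fold change -4.72). Eif2s3y, a translation initiation factor gene, fell from 75.6, 77.1 and 76.2 CPM to 3.37, 2.8 and 2.2 CPM (log2 fold change -4.80, SE 0.09, adjusted p = 7.1e-15). Uty, a histone demethylase paralog, fell from 40.9, 41.6 and 40.4 CPM to 1.4, 1.64 and 1.59 CPM (log2 fold change -4.72, SE 0.09). The RNA helicase gene Ddx3y fell from 74.4, 74.2 and 68.3 CPM to 3.79, 4.32 and 3.76 CPM (log2 fold change -4.19, SE 0.08). None of these groups overlapped, yet none of the 3 genes was at 0 in any MLL2 dTAG library. Zfy1, a zinc finger gene, had 252 counts over the wild-type libraries and 0 over the MLL2 dTAG libraries, at least 105-fold lower against a floor of 3 counts over the group. Kdm5d, an H3K4 demethylase gene, fell least in ESCs, from 2.2, 2.31 and 3.28 CPM to 1.22, 1.52 and 1.18 CPM (log2 fold change -1.01, SE 0.23). Of the 7 X-linked partners of Y genes, 2 were called higher and 0 lower, with Ddx3x at 0.10 (adjusted p = 0.0455) and Kdm6a not called at -0.10. The direction of this family depended on the scaling. Upper quartile scaling gave 1 higher and 3 lower, and without any one of wild-type replicate 3 and the MLL2 dTAG replicates 1 was higher, Ddx3x having lost its call. In a bulk library, fewer cells with a transcript and less of it per cell cannot be told apart. The MLL3/4 dCD line kept these transcripts, with a summed 204 CPM. In NPCs of the MLL2 dTAG line the Y transcripts were nearly absent. Ddx3y had 37 counts over its NPC libraries, Eif2s3y 14, Uty 4 and Kdm5d 6. Their fitted log2 fold changes over wild-type NPCs were -7.95, -9.09, -10.39 and -7.06.

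**Figure D3:**
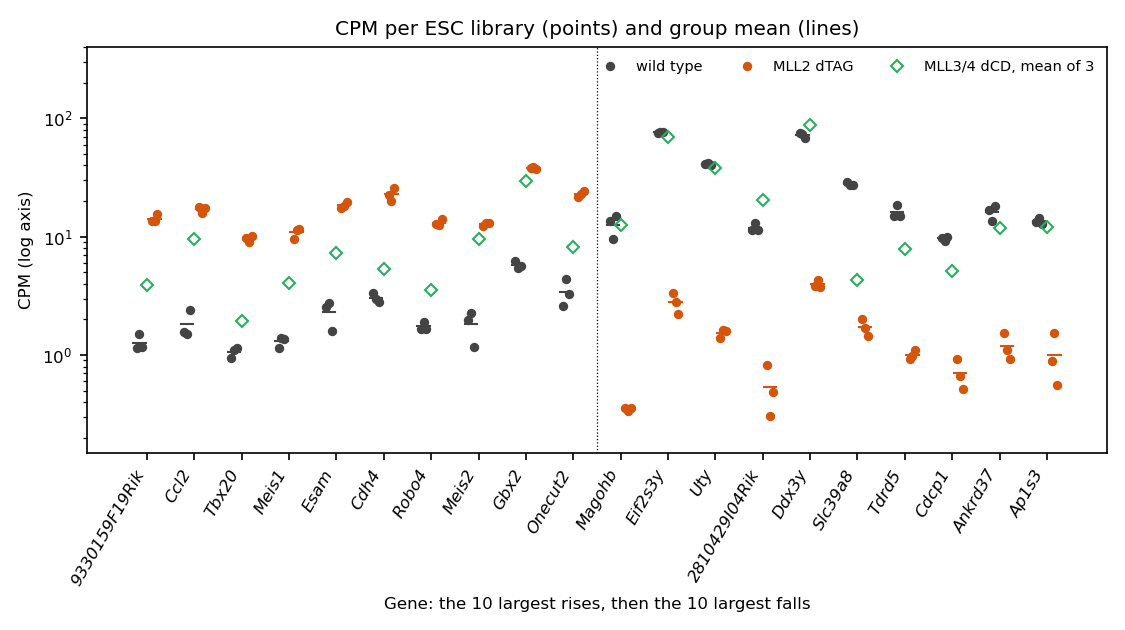
CPM per ESC library (log axis) for the 10 genes with the largest rise and the 10 with the largest fall among genes of at least 5 CPM, wild type in grey and MLL2 dTAG in orange, with a line at each group mean and a green diamond for the mean of 3 MLL3/4 dCD libraries. Genes were taken only if called and without overlap between the groups. For each of the 10 rises the diamond lies between the 2 group means. These genes were chosen for high values in the same MLL2 dTAG libraries.

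Transcripts of the 2-cell-like state were nearly absent. This state is entered by rare ESCs that briefly express genes of the 2-cell embryo, among them the Zscan4 cluster on chromosome 7. Of 21 listed members 13 passed the count filter, which the wild-type libraries alone could bring about, and these 13 were lower. Their summed level was 37.7 CPM in wild type, 0.2 CPM in the MLL2 dTAG line and 222 CPM in the MLL3/4 dCD line. Zscan4c, a zinc finger gene linked to telomere maintenance, was at 4.92, 5.12 and 5.39 CPM in wild type and had no count in the MLL2 dTAG libraries, at least 172-fold lower. Zscan4a had 673 counts in wild type and 2 in the MLL2 dTAG line, a ratio of 422 with an exact 95% interval from 116 to 3490. Zscan4d had 549 and 2, a ratio of 344 (interval 94.9 to 2850). These intervals cover counting error only, and they take each count as independent. If both mates of a pair were counted, a count of 2 may be 1 fragment and the intervals are too narrow. Members of the Usp17l family of deubiquitinases behaved alike, from at least 25.9-fold lower for Usp17ld to a ratio of 60.2 (interval 16.2 to 504) for Usp17la. Zfp352, another gene of this stage, was at least 22.6-fold lower. With the 8 members at 0 set to their bound and the 4 members with 1 to 3 counts at their ratio, the list's median log2 fold change was -5.82. Zscan4 and Usp17l are families of near copies, and reads may be shared between members. A filter of at least 50 counts in 3 libraries left 4 members called lower.

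Germline and meiosis genes split, with more falls than rises. Of 37 tested, 21 were lower and 9 higher (median log2 fold change -1.13). Ddx4, the helicase also known as Vasa, fell from 32.8, 31.5 and 33.9 CPM to 3.22, 4.99 and 3.12 CPM (log2 fold change -3.12, SE 0.12, adjusted p = 8.66e-12). The germ cell transcription factor gene Sohlh2 fell from 35.6, 33.2 and 31.9 CPM to 3.65, 4.08 and 3.87 CPM (log2 fold change -3.11, SE 0.09). Sycp3, a structural gene of the synaptonemal complex that joins homologous chromosomes, fell from 28.8, 25.4 and 29.7 CPM to 5.19, 4.59 and 3.56 CPM (log2 fold change -2.67, SE 0.11). Genes of the piRNA pathway, which silences transposons in germ cells, were among the falls. Mael fell from 21.2, 21.8 and 26.1 CPM to 3.51, 4.23 and 3.81 CPM (log2 fold change -2.58, SE 0.11) and Tdrd1 by 2.83 on the log2 scale. Tdrd5, a further piRNA gene outside the list, was among the 10 largest falls, from 14.9, 18.4 and 15.1 CPM to 0.931, 0.973 and 1.1 CPM (log2 fold change -4.00, SE 0.14). No group overlapped for these genes. In the other direction, Tuba3a, a testis tubulin gene with a near copy, rose from 30.6, 26.6 and 30.6 CPM to 149, 148 and 143 CPM (log2 fold change 2.33, SE 0.06, adjusted p = 1.03e-13). Hormad1, a meiotic chromosome axis gene, rose from 28.6, 25.9 and 24.6 CPM to 42.5, 44.7 and 45.4 CPM (log2 fold change 0.75, SE 0.06). Dnmt3l, a germ cell cofactor of de novo DNA methylation that ESCs also express, rose from 221, 203 and 223 CPM to 346, 354 and 344 CPM (log2 fold change 0.69, SE 0.04).

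The upstream 250 bases of 3 of these genes are shown to compare germline genes that moved in opposite directions, with the E-box CACGTG in capitals. This motif reads the same on both strands and is bound by MAX dimers, which take part in silencing germline genes in ESCs. Ddx4 lies at chr13:112652311-112652560 (minus strand), Sycp3 at chr10:88459337-88459586 (plus) and Hormad1 at chr3:95559427-95559676 (plus), all in GRCm38.p6 from RefSeq and written 5′ to 3′. Ddx4 and Sycp3 fell, and Hormad1 rose.
Ddx4: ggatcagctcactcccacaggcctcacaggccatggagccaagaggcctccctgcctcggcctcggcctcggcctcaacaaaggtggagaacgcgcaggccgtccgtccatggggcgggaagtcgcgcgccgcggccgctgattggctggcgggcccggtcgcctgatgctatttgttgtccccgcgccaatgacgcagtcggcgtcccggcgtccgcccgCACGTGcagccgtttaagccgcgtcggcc
Sycp3: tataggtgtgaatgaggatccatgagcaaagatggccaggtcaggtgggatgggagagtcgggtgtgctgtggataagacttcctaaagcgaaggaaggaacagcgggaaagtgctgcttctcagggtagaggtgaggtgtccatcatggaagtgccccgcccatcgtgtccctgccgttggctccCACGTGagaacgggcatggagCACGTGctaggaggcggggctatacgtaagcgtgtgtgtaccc
Hormad1: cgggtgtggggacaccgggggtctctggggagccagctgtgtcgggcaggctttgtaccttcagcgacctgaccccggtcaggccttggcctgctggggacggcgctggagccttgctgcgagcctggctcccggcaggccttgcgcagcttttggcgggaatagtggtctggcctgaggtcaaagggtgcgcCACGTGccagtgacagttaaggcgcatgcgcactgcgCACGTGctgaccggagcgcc

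Over all 27025 symbols with a window, 6.86% hold CACGTG in these 250 bases. Of the germline genes called lower, 18 had a window and 8 of these held it. Of those called higher, 2 of 8 held it, and of those not called, 3 of 7. The motif was thus present in genes of each class, and a match is a description of the letters only.

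The 10 largest rises were taken among called genes at a mean of 5 CPM or more without overlap between the groups. They began with 9330159F19Rik (log2 fold change 3.46, SE 0.14) and the chemokine gene Ccl2 (log2 fold change 3.19, SE 0.14). Those described next are from the same 10. Tbx20, a T-box factor of the heart, rose from 0.943, 1.11 and 1.14 CPM to 9.74, 8.94 and 10.1 CPM (log2 fold change 3.15, SE 0.15, adjusted p = 6.87e-11). The homeobox genes Meis1 and Meis2, cofactors of Hox proteins, rose from 1.15, 1.4 and 1.37 CPM to 9.59, 11.4 and 11.6 CPM (log2 fold change 3.03, SE 0.15) and from 1.99, 2.28 and 1.17 CPM to 12.4, 13.2 and 13.1 CPM (log2 fold change 2.84, SE 0.16). Onecut2, a homeobox factor of liver and neurons, rose from 2.62, 4.37 and 3.25 CPM to 21.6, 23 and 24.5 CPM (log2 fold change 2.72, SE 0.12). Separation of the groups was thus a condition of entry for each of these genes, not a result. Esam and Robo4, known as endothelial surface genes, rose by log2 fold changes of 3.02 (SE 0.14) and 2.90 (SE 0.13). Robo4 went from 1.68, 1.89 and 1.68 CPM to 12.7, 12.4 and 14.1 CPM. Cdh4, encoding R-cadherin, rose from 3.35, 3 and 2.81 CPM to 22.7, 20.1 and 26 CPM (log2 fold change 2.92, SE 0.12). Values against the MLL3/4 dCD line use the same MLL2 dTAG libraries but not the wild-type ones. On the log2 scale they were 2.33 for Tbx20, 2.14 for Cdh4, 1.90 for Robo4, 1.44 for Meis1 and 0.44 for Meis2. The genes were chosen for high values in these MLL2 dTAG libraries, so this direction is partly built in. The comparison with the MLL3/4 dCD line tested 17536 genes and called 56.2% of them, 27.8% higher and 28.4% lower.

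Markers of the naive pluripotent state, the ground state that LIF supports, were mostly higher. Of 25 tested, 15 were higher and 4 lower (median log2 fold change 0.23). Gbx2, a homeobox target of LIF signalling, rose most, from 6.23, 5.44 and 5.66 CPM to 37.9, 38.8 and 37.1 CPM (log2 fold change 2.73, SE 0.08, adjusted p = 2.42e-13). The transcription factor gene Klf4 rose from 113, 109 and 126 CPM to 207, 209.6 and 204 CPM (log2 fold change 0.83, SE 0.05). Klf5 rose from 53.4, 59.7 and 57.3 CPM to 124, 134 and 128 CPM (log2 fold change 1.18, SE 0.05), and Tbx3 from 49.5, 54.9 and 53.1 CPM to 129, 124 and 123 CPM (log2 fold change 1.25, SE 0.05). The groups did not overlap for these genes. Dppa3, also called Stella, went the other way, from 18.1, 13.1 and 18.9 CPM to 7.12, 6.75 and 6.61 CPM (log2 fold change -1.29, SE 0.12). Smaller falls were those of Dppa5a (-0.32), Sox2 (-0.20) and Fgf4 (-0.11). Nanog (0.16) and Esrrb (0.23) rose little, and Pou5f1 (0.15) and Klf2 (0.04) were not called. Means in the MLL3/4 dCD line were 29.7 CPM for Gbx2, 102 CPM for Klf4, 93.9 CPM for Klf5 and 82.4 CPM for Tbx3. Of 15 tested genes of the LIF and STAT3 pathway, 10 were higher and 2 lower. These included the receptor genes Lifr (0.28) and Il6st (0.35), the transducer Stat3 (0.25) and the feedback inhibitor Socs3 (0.39), all on the log2 scale. The kinase gene Pim1 fell (log2 fold change -1.06, SE 0.05). The lower count of this list was 1 without any one of wild-type replicates 2 and 3 and MLL2 dTAG replicates 1 and 3, which removed the fall of Jak2. Pluripotency-associated long noncoding RNAs (Platr genes) had 12 of 23 higher and 3 lower, among them Lncenc1 from 259.7, 270.0 and 263 CPM to 439, 439.7 and 437 CPM (log2 fold change 0.73, SE 0.04).

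Markers of the formative and primed states, through which ESCs pass towards the germ layers, had 7 of 12 lower and 2 higher (median log2 fold change -0.29). Fgf5, the classical epiblast marker, fell from 7.59, 6.45 and 6.1 CPM to 1.5, 1.58 and 1.38 CPM (log2 fold change -2.16, SE 0.16, adjusted p = 1.18e-08). Fgf8, another fibroblast growth factor gene, fell from 2.46, 2.93 and 2.75 CPM to 0.465, 0.456 and 0.563 CPM (log2 fold change -2.44, SE 0.25). Otx2, a homeobox factor of the primed epiblast, fell from 62.5, 57 and 60.6 CPM to 33.7, 33.5 and 35.2 CPM (log2 fold change -0.81, SE 0.05). No groups overlapped here. Foxd3 rose instead, from 4.92, 4.53 and 4.66 CPM to 12.8, 13.2 and 12.9 CPM (log2 fold change 1.47, SE 0.10). Against the MLL3/4 dCD line 11 of 13 tested members were lower and 1 higher, with a median log2 fold change of -1.04. That line's means were themselves above wild type for every listed member except Otx2 (58 against 60 CPM), such as Sall2 (41.7 against 18.1 CPM). Cdh2 was higher than wild type (0.57) but lower than the MLL3/4 dCD line (-1.31). This median is thus not a measure of the fall from wild type.

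Hox genes, the positional regulators of the body axis and typical bivalent genes, were higher from very low levels. Of 39 listed, 26 passed the filter, which the MLL2 dTAG libraries alone could bring about, with 17 higher and 1 lower (median log2 fold change 1.21). Their summed level went from 20.2 to 46.8 CPM. Hoxc13 rose from 2.46, 2.41 and 2.61 CPM to 8.02, 8.15 and 9.78 CPM (log2 fold change 1.80, SE 0.14, adjusted p = 1.5e-08). Hoxb9 rose from 2.41, 3.13 and 2.41 CPM to 6.23, 5.72 and 5.71 CPM (log2 fold change 1.13, SE 0.15). Hoxa10 rose from 0.209, 0.652 and 0.636 CPM to 3.15, 1.79 and 2.41 CPM (log2 fold change 2.19, SE 0.33), and Hoxd1 fell from 0.419, 0.391 and 0.737 CPM to 0.0716, 0.122 and 0.154 CPM (log2 fold change -2.09, SE 0.51). The groups did not overlap for these 4 genes. With at least 50 counts required in 3 libraries, 7 Hox genes were called higher and 0 lower. The MLL3/4 dCD line had a summed 40.8 CPM, and the list's median against it was -0.05, with 4 higher and 1 lower of 29 tested.

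Of 26 tested mesoderm regulators, 16 were higher and 5 lower (median log2 fold change 0.92). Prrx1, a homeobox gene of mesenchyme, rose from 16.4, 18.7 and 17.5 CPM to 41.6, 42.5 and 45.3 CPM (log2 fold change 1.29, SE 0.07, adjusted p = 1.83e-10). Isl1, a LIM homeobox gene of cardiac progenitors, rose from 0.524, 0.196 and 0.402 CPM to 1.79, 1.34 and 1.46 CPM (log2 fold change 2.08, SE 0.35), without overlap. Of 3 regulators of early mesoderm given here, 2 fell and 1 was not called. T, or brachyury, fell from 3.82, 4.56 and 3.65 CPM to 1.75, 1.52 and 1.51 CPM (log2 fold change -1.34, SE 0.18), without overlap. Eomes was lower by 0.40 on the log2 scale, and Mixl1 was not called (-0.25, adjusted p = 0.655). The stricter filter left 8 called higher, and leaving out MLL2 dTAG replicate 1 left 2 called lower. The list's median against the MLL3/4 dCD line was -0.04.

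Endoderm genes had 12 of 26 higher and 5 lower, and 3 lower with the stricter filter. Of those linked to the primitive endoderm, the extraembryonic layer next to the epiblast, 4 that rose are given first. Gata6, one of its specifying factors, rose from 2.99, 4.04 and 2.71 CPM to 8.09, 8.27 and 8.76 CPM (log2 fold change 1.35, SE 0.14, adjusted p = 6.52e-07). Pdgfra rose from 10.3, 11 and 10.8 CPM to 27.3, 27.4 and 27.8 CPM (log2 fold change 1.36, SE 0.07). Lama1, a laminin of its basement membrane, rose from 115, 141 and 125 CPM to 275, 273 and 289 CPM (log2 fold change 1.13, SE 0.06). The homeobox gene Rhox5 rose from 40.1, 34.3 and 35.4 CPM to 161, 171 and 159.9 CPM (log2 fold change 2.17, SE 0.06). All 4 were free of overlap. Against the MLL3/4 dCD line, with the same MLL2 dTAG libraries, they were higher by 1.65, 1.11, 1.63 and 0.89 on the log2 scale. Not all such genes rose. Of 8 primitive endoderm markers, 4 were higher, 0 lower, and their sum went from between 126 and 137 CPM to between 163 and 171 CPM. Dab2 (-0.09), Cubn (0.11), Amn (-0.37) and Sox17 (0.59 on the log2 scale) were the markers not called. The laminin gene Lamb1, outside these 8, fell from a mean of 298 CPM to one of 220 CPM (log2 fold change -0.44). Neural regulators had 9 of 22 higher and 3 lower (5 lower with no filter on low counts and 6 with all 18 libraries in the fit). Sox1, the earliest neural plate factor, rose from 2.51, 3.06 and 3.42 CPM to 12.7, 10.5 and 11.3 CPM (log2 fold change 1.91, SE 0.13), and Pax6 from 1.57, 2.38 and 1.21 CPM to 6.73, 8.06 and 6.55 CPM (log2 fold change 2.03, SE 0.20). The summed level of 6 neural precursor markers stayed low, from between 4.29 and 5.64 to between 18.5 and 20.2 CPM. Trophoblast genes were split, 5 higher and 6 lower of 15, beside 30.6% higher and 30.2% lower over all genes tested. Tfap2a rose from 1.15, 1.24 and 0.804 CPM to 4.97, 4.44 and 4.3 CPM (log2 fold change 2.10, SE 0.20) and the keratin gene Krt7 fell from 5.81, 5.61 and 7.44 CPM to 0.787, 0.912 and 0.666 CPM (log2 fold change -3.00, SE 0.20).

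Markers of ESCs stayed high, with 5 of 8 called higher and 2 lower. The summed level of these markers was between 3250 and 3550 CPM in wild type and between 3820 and 4010 CPM in the MLL2 dTAG line, with none under 1 CPM. Fibroblast and mesenchymal genes rose as a group. All 15 tested of 16 listed were called higher (median log2 fold change 0.71), 12 in the lowest alternative. Col1a2, a collagen gene, rose from 207, 251 and 220.4 CPM to 365, 359 and 380.4 CPM (log2 fold change 0.70, SE 0.06, adjusted p = 4.36e-08). Col3a1 rose by 1.05 on the log2 scale, and the intermediate filament gene Vim from 309, 300.1 and 316 CPM to 506, 509 and 496 CPM (log2 fold change 0.71, SE 0.04). The groups did not overlap for these genes. In the narrower set of 8 fibroblast or feeder markers, 7 were higher, and the sum went from between 467 and 583 CPM to between 805 and 857 CPM. None of the 8 was at 0 in both groups, and 2 were under 1 CPM in the MLL2 dTAG line. These markers moved with the Hox and mesoderm lists, and their part in those results was not tested. The MLL3/4 dCD line had a summed 1710 CPM over the 16 listed genes, beside 1740 in the MLL2 dTAG line and 1070 in wild type.

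The epithelial genes given here moved in the opposite direction. Their list also holds mesenchymal genes, such as Zeb1 and Cdh11. Of its 30 tested members, 18 were lower and 10 higher (median log2 fold change -0.83). These counts and medians are thus not values of epithelial genes alone. Cdh1, encoding E-cadherin, fell from 585, 584 and 578 CPM to 300.5, 309 and 307 CPM (log2 fold change -0.93, SE 0.04, adjusted p = 1.9e-11). The adhesion gene Epcam fell from 249.9, 217 and 242 CPM to 143, 145 and 135 CPM (log2 fold change -0.74, SE 0.05), and Krt18, a simple-epithelium keratin, from 36.7, 33.3 and 40.8 CPM to 4.72, 6.14 and 5.28 CPM (log2 fold change -2.77, SE 0.10). Esrp1, a splicing factor of epithelial cells, fell from 112, 123 and 117 CPM to 46.2, 45.4 and 45.9 CPM (log2 fold change -1.36, SE 0.05). Among the rises, Zeb1, a repressor of E-cadherin, went from 20.8, 23.6 and 22.9 CPM to 50.9, 50.9 and 56.3 CPM (log2 fold change 1.23, SE 0.07) and the mesenchymal cadherin Cdh11 from 9.32, 10.2 and 9.48 CPM to 36.6, 36.9 and 38.2 CPM (log2 fold change 1.94, SE 0.07). All these groups were apart. Against the MLL3/4 dCD line the list's median was -0.002, with Cdh1 at -0.55, Zeb1 at 0.01 and Cdh11 at 0.03.

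**Figure D4:**
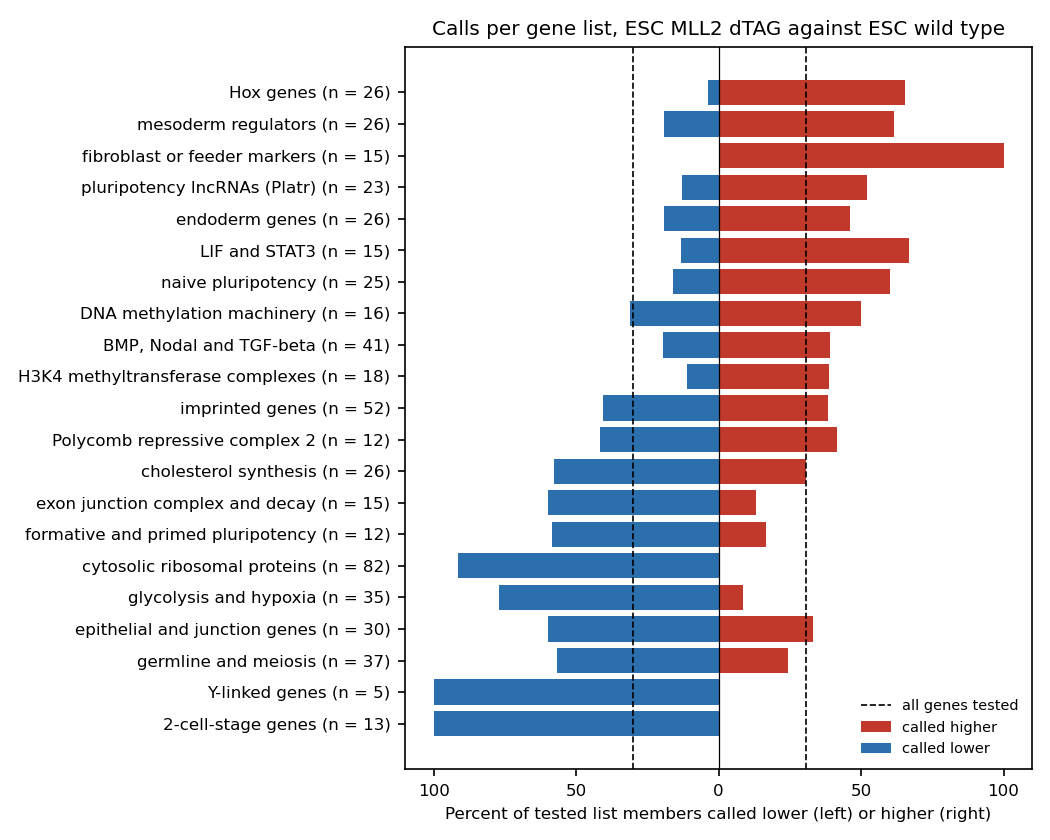
For 21 gene lists, bars give the percent of tested members called lower (blue, left) or higher (red, right) in the MLL2 dTAG line, ordered by median log2 fold change; dashed lines mark all genes tested (30.2% lower, 30.6% higher). Every tested member was lower for the 2-cell-stage and Y-linked lists and higher for the fibroblast or feeder list.

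Signalling genes of the BMP, Nodal and TGF-beta family had 16 of 41 higher and 8 lower (13 lower with all 18 libraries in the fit). Over all genes tested 30.6% were higher and 30.2% lower. Among ligands, Bmp4 rose from 24, 22.4 and 24 CPM to 102, 102 and 108 CPM (log2 fold change 2.15, SE 0.05, adjusted p = 1.29e-13). Inhbb, an activin subunit, rose from 31.5, 31.4 and 29.9 CPM to 96.6, 99.4 and 94.2 CPM (log2 fold change 1.65, SE 0.05), and the BMP antagonist Grem1 from 24.6, 24.6 and 25 CPM to 96.8, 94.4 and 97.4 CPM (log2 fold change 1.96, SE 0.05). Lefty1, an antagonist and target of Nodal, fell from a mean of 71 CPM to one of 18.4 CPM (log2 fold change -1.95, SE 0.06). Among targets of BMP, Id1 rose from 7.02, 7.17 and 9.45 CPM to 26.3, 25.8 and 25.9 CPM (log2 fold change 1.71, SE 0.10) and Id3 from 7.38, 6.71 and 9.28 CPM to 19.8, 18.7 and 18 CPM (log2 fold change 1.26, SE 0.11). No overlap occurred in these 6 genes. The receptor gene Tgfbr2 rose by 1.36 on the log2 scale, while Nodal was not called (0.13, adjusted p = 0.0944).

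Growth regulators moved in both directions. Lin28b, an RNA-binding repressor of let-7 microRNAs, fell from 61.8, 68.1 and 62.3 CPM to 6.16, 5.96 and 7.38 CPM (log2 fold change -3.29, SE 0.08, adjusted p = 1.03e-13). Its paralog Lin28a was not called (0.01, adjusted p = 0.809). Igf2bp2, an RNA-binding protein gene, fell from 181, 174 and 179 CPM to 60.6, 58.9 and 64.7 CPM (log2 fold change -1.53, SE 0.05). Myc rose from 8.9, 8.08 and 8.74 CPM to 44.9, 46 and 46.2 CPM (log2 fold change 2.42, SE 0.07). For Lin28b, Igf2bp2 and Myc the groups were far apart. Of 24 cyclin, inhibitor and E2F genes for the G1 phase, 11 were higher and 11 lower. Ccnd2, encoding cyclin D2, rose from 35.8, 46.2 and 42.8 CPM to 116, 119 and 126 CPM (log2 fold change 1.52, SE 0.07). The inhibitor genes Cdkn2b and Cdkn2a rose by 1.49 and 1.25 on the log2 scale, and the inhibitor Cdkn1c fell by 1.62. Some of these changes were shared with the MLL3/4 dCD line. Its ESC means were 118 CPM for Ccnd2, 14 CPM for Cdkn2b and 13.6 CPM for Cdkn2a, beside 120.5, 13.7 and 14.3 CPM in the MLL2 dTAG line. Myc was at 36.1 CPM there, Cdkn1c at 4.8 CPM, Igf2bp2 at 147 CPM and Lin28b at 74.6 CPM.

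The machinery of DNA methylation had 8 of 16 higher and 5 lower. The methyltransferases were among the falls. Dnmt1, the maintenance enzyme, fell from 526, 551 and 529 CPM to 239.5, 247 and 246 CPM (log2 fold change -1.13, SE 0.04, adjusted p = 3.38e-12). The de novo enzymes Dnmt3b and Dnmt3a fell from 377, 379 and 366 CPM to 222, 225 and 227 CPM (log2 fold change -0.74, SE 0.04) and from 185, 192 and 186 CPM to 140.1, 142 and 145 CPM (log2 fold change -0.40, SE 0.04). Tet2, which oxidises methylcytosine, rose from 258, 303 and 255 CPM to 502, 488 and 507 CPM (log2 fold change 0.88, SE 0.06), and Zfp57, a guard of imprinted methylation, from 336, 354 and 338 CPM to 699, 642 and 649.6 CPM (log2 fold change 0.95, SE 0.05). No groups overlapped among these genes. Polycomb repressive complex 2, which places H3K27 trimethylation, had 5 of 12 higher and 5 lower. Its accessory subunit gene Jarid2 rose from 429, 471 and 422 CPM to 899, 922 and 897 CPM (log2 fold change 1.04, SE 0.05). The catalytic subunit genes fell, Ezh2 by 0.33 and Ezh1 by 0.92 on the log2 scale. Imprinted genes were evenly split, 20 higher and 21 lower of 52, beside 30.6% higher and 30.2% lower over all genes tested. Zdbf2 rose from 130.1, 158 and 130.4 CPM to 399, 409 and 400.0 CPM (log2 fold change 1.53, SE 0.06), Peg10 from 510.2, 590.0 and 539 CPM to 993, 1007 and 1002 CPM (log2 fold change 0.87, SE 0.05), and Phlda2 fell from 18.2, 15 and 17.3 CPM to 3.01, 2.46 and 3.02 CPM (log2 fold change -2.56, SE 0.12).

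Genes of glycolysis and the hypoxia response were mostly lower. Of 35 tested, 27 were lower and 3 higher (median log2 fold change -0.34). The glycolytic enzyme gene Aldoa fell from 1824, 1553 and 1714 CPM to 1191, 1161 and 1120.0 CPM (log2 fold change -0.55, SE 0.05, adjusted p = 1.98e-07), and Gpi1 from 1027, 1048 and 964 CPM to 597, 566 and 573 CPM (log2 fold change -0.81, SE 0.04). Ldhb, a lactate dehydrogenase gene, fell from 457, 402 and 426 CPM to 224, 216 and 210.1 CPM (log2 fold change -0.98, SE 0.05). Ankrd37, a hypoxia target, fell most, from 16.9, 13.7 and 18.1 CPM to 1.54, 1.09 and 0.922 CPM (log2 fold change -3.80, SE 0.17). Pdk1, the kinase that restrains pyruvate dehydrogenase, rose from 290.3, 293 and 301 CPM to 389.8, 391 and 390.3 CPM (log2 fold change 0.41, SE 0.04). None of the 5 had overlapping groups. Against the MLL3/4 dCD line the list's median was -0.10.

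Transcripts for ribosomal proteins of the cytosol were lower almost throughout. Of 82 tested, 75 were lower and 0 higher (median log2 fold change -0.33). Their summed level was between 28600 and 35400 CPM in wild type and between 24100 and 26800 CPM in the MLL2 dTAG line. The elongation factor gene Eef2 fell from 3775, 3168 and 3464 CPM to 2307, 2246 and 2226 CPM (log2 fold change -0.62, SE 0.05). Wild-type replicate 2, whose counts lean to long transcripts, gave the lowest of the wild-type values for Eef2. Without that library 79 ribosomal protein genes were lower. Against the MLL3/4 dCD line 80 of 82 were lower and 1 higher (median -0.30). Of mitochondrial ribosomal protein genes, 24 of 77 were higher and 7 lower, and of respiratory chain genes 16 of 61 were higher and 5 lower, beside 30.6% higher and 30.2% lower over all genes. The shares called higher were thus near that of all genes, and the difference from the cytosolic list was not tested. Without wild-type replicate 2 the lower counts were 14 and 21, and without MLL2 dTAG replicate 1 the higher count for the respiratory chain was 10. Cholesterol synthesis genes had 15 of 26 lower and 8 higher. Insig1, a sterol-regulated brake on this pathway, fell from 121, 122 and 127 CPM to 61, 62.9 and 61.9 CPM (log2 fold change -0.99, SE 0.04), without overlap.

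Inflammatory, interferon and antigen presentation genes had 15 of 43 higher and 16 lower. Over all genes tested 30.6% were higher and 30.2% lower, so these counts do not set the family apart. The chemokine genes Ccl7 and Cxcl5 were among the rises, Ccl7 from 6.55, 6.78 and 6.97 CPM to 21.2, 22.8 and 19.8 CPM (log2 fold change 1.64, SE 0.09). Ddx58, encoding the viral RNA sensor RIG-I, rose from 24.1, 24.2 and 23.7 CPM to 73.4, 75.5 and 79.5 CPM (log2 fold change 1.67, SE 0.05). Some antigen presentation genes fell. H2-K1, a class I histocompatibility gene, fell from 59.3, 55.1 and 58.5 CPM to 28.4, 30.8 and 29.4 CPM (log2 fold change -0.96, SE 0.06), and the immunoproteasome gene Psmb8 from 2.41, 1.73 and 2.48 CPM to 0.394, 0.456 and 0.179 CPM (log2 fold change -2.70, SE 0.34). The 2 groups were separate in each case, as they were for 65.8% of all genes tested.

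A pair of further comparisons places these lists beside other libraries. The MLL2 dTAG ESCs were set against ESCs of the MLL3/4 dCD line, and neural progenitor cells (NPCs) of the MLL2 dTAG line were set against wild-type NPCs. The first shares the MLL2 dTAG libraries with the main comparison. The second uses separate libraries of the same lines and called 71.2% of 18086 genes, 35.4% higher and 35.8% lower. In NPCs, rises of 2-fold or more made up 7.36% of genes and falls of that size 12.6%, and the difference between the ESC and NPC changes was called for 49.8% of 19995 genes. Hox genes, with a median of 1.21 over wild-type ESCs, stood at -0.05 over MLL3/4 dCD ESCs and at -0.58 in NPCs. Naive pluripotency genes stood at 0.23, 0.35 and 2.29, positive in each. Glycolysis and hypoxia genes were at -0.34, -0.10 and -0.76. For germline and meiosis genes the medians were -1.13, -0.85 and -0.41. Over all genes tested the medians were -0.003, -0.009 and -0.008.

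**Figure D5:**
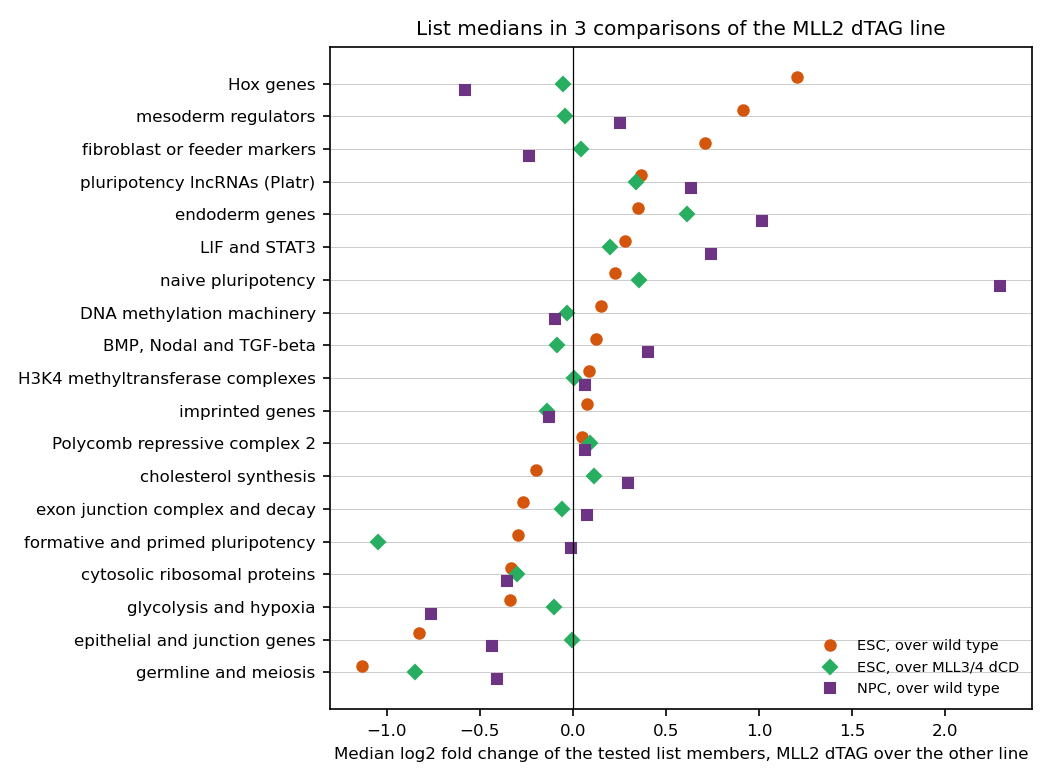
Median log2 fold change of the tested members of 19 gene lists, MLL2 dTAG over wild type in ESCs (orange circles), MLL2 dTAG over MLL3/4 dCD in ESCs (green diamonds, sharing the MLL2 dTAG libraries) and MLL2 dTAG over wild type in NPCs (purple squares). Hox, mesoderm, fibroblast and epithelial lists lie near 0 over MLL3/4 dCD, while germline and ribosomal protein lists lie below 0 in all 3. The epithelial list also holds mesenchymal genes.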

How the data were processed

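RNA was sequenced with a stranded mRNA kit, per the labels' protocols. The authors deposited 1 table of counts per gene symbol, made with HTSeq per the submitters' processing notes. The aligner, genome build and counting options are not given in the sources used here. Of its columns, 6 share 3 repeated names that do not tell 2 sets of libraries apart, and these were not used. Of the 36 samples, 18 were not used here. Between 60.8% and 66.5% of counts from 1 to 10 were even, so both mates of a pair may have been counted. Counting intervals cover counting error only, and they are too narrow if mates were counted separately.

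Genes were filtered with filterByExpr, scaled by TMM and tested with edgeR 4.0.16 (glmQLFit and glmQLFTest, R 4.3.3), two-sided, with Benjamini-Hochberg adjustment over all genes tested. Each comparison was fitted on its own 6 libraries, the interaction of line and stage on 12. Fold changes set against no counts use a floor of 3 counts over the group, and ratios with 1 to 3 counts have exact 95% intervals. Depth ran from 19430860 to 38723113 counts per library. On simulated data with these library sizes and 17675 genes, 97% of changes of 1 and 78% of changes of 0.5 on the log2 scale were recovered. Each size was given to 100 genes above 1 CPM, and 14 unchanged genes were called. The simulation had few changed genes and the same spread in both groups, unlike these data, so its rates do not carry over.

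Alternatives were other scalings and filters, DESeq2 1.42.0, limma voom (3.58.1), a replicate block, halved counts, offsets for GC content and length, and each library left out. Gene types and chromosomes came from GENCODE M21, which held 96.6% of the tested symbols. Promoter CpG classes were not formed, since only 78.1% of tested protein-coding genes had a RefSeq window. Named genes are Kmt2b, Kmt2c, Kmt2d, Magohb and Magoh, the 10 largest rises and 10 largest falls among called genes of at least 5 CPM without overlap, the 5 largest rises and 5 largest falls in CPM, up to 3 members per list and direction of at least 1 CPM, and list members needed to describe a list. Some named genes are not reported here. The comparison and the gene lists were chosen with earlier results of these data known.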

Additional observations from a re-analysis of the deposited data

Results flagged for a closer look

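For 16 genes the change in the MLL2 dTAG line was at least 2-fold in both ESCs and NPCs but in opposite directions, and the interaction of line and stage was called (edgeR's quasi-likelihood test on 12 libraries, in which 49.8% of 19995 genes were called). They come from 1184 list members and named genes with at least 1 CPM, of which 195 were called in opposite directions at any size. Each interaction value below is the NPC change minus the ESC change on the log2 scale. Genes that rose in ESCs and fell in NPCs included 3 Hox genes, with interactions of -4.57 for Hoxa10, -3.86 for Hoxa9 and -3.83 for Hoxc6. Hoxc6, for example, changed by 1.80 in ESCs, where its means were 0.633 and 2.32 CPM, and by -2.08 in NPCs, where they were 78.5 and 19.2 CPM. The imprinted gene Zdbf2 had an interaction of -3.88, with means of 139 and 403 CPM in ESCs and 231 and 45.4 CPM in NPCs. The same direction held for the neurofilament gene Nefm (-3.95), the WNT inhibitor Notum (-3.68), the mesenchymal factor Prrx1 (-2.86), the synaptic vesicle gene Syt1 (-2.47), the retinoid enzyme gene Aldh1a3 (-2.62) and the chemokine gene Cxcl5 (-7.18). Cxcl5 was low throughout, at most 3.75 CPM in a group mean. Genes that fell in ESCs and rose in NPCs included the germline genes Dazl (4.45) and Taf7l (3.38). Dazl had means of 14.1 and 4 CPM in ESCs and 2.5 and 15.6 CPM in NPCs. Others were the Nodal antagonist Lefty1 (3.82), the interferon target Oasl2 (4.14), the chemokine gene Cxcl16 (3.28) and the WNT antagonist Sfrp5 (2.88).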

How the results depend on the processing

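The number of genes called in the ESC comparison lay between 9233 (at least 50 counts in 3 libraries) and 11676 (all 18 libraries in 1 fit) over the alternatives, against 10743 as reported. With the replicate number as a block it was 10460. Same-numbered libraries did not deviate together (correlations of 0.0645, -0.102 and -0.0683 across genes), so the numbers were not taken as pairs. Leaving out 1 library at a time gave 9732 to 11038 called, 4859 to 5531 higher, 4873 to 5507 lower, 1116 to 1239 at least 2-fold higher and 1774 to 1924 at least 2-fold lower. The stricter filter moved the 2-fold counts to 694 higher and 969 lower, since it keeps 13542 genes and removes those of low level. The share of calls that were higher went from 50.3% to 43.9% with upper quartile scaling. For the 256 named genes, 4292 alternative values stayed on the same side of the threshold, 51 lost the call, 1 gained it (Magoh, 0.15 with offsets for GC content and length) and 0 called values reversed. Of the genes that were not called, Kmt2b changed sign without wild-type replicate 2 (0.032), and Magoh changed sign without that library (-0.056) and with limma voom (-0.001). The 51 include values of Aldh1a2, Ash2l, Ddx3x, Jak2, Kdm5a, Kmt2d, Ndufs5, Sdhb, Sox11 and Tbx6, and the cause was not tested. With 3 libraries per group, 1 line per genotype and a wild-type group whose second library stands apart, small changes are the least secure. In the shallowest library, 3 counts are 0.154 CPM.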

Other observations

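Dbh, which encodes the enzyme that makes noradrenaline from dopamine, had the largest fitted rise of all tested genes with a count in wild type. It was chosen after its values were seen and has a mean under 5 CPM. It stood at 0.157, 0.0326 and 0.0335 CPM in the wild-type libraries and at 6.09, 6.96 and 7.4 CPM in the MLL2 dTAG libraries (log2 fold change 6.67, SE 0.32, adjusted p = 7.23e-11 by edgeR's quasi-likelihood test). That is 5 counts against 688. The MLL3/4 dCD ESC libraries had no count for it, and NPCs had means of 0.205 CPM in wild type and 6.72 CPM in the MLL2 dTAG line.

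Of the genes tested, 42 had no count in any of the 3 MLL2 dTAG ESC libraries, and 1 had none in the wild-type libraries (39 counts in the MLL2 dTAG line). Of the 42, 8 are members of the 2-cell list and 33 are in no list. The lists were written by hand and left out further Zscan4 copies, so this split does not mark off the 2-cell state. Among those in no list are Zscan4-ps3, with 409 counts in wild type and at least 171-fold lower, and Tmem92, with 213 counts and at least 89.1-fold lower. The highest count was that of Uba1y on the Y chromosome, with 571 counts in wild type, at least 239-fold lower. Spag16, a sperm flagellum gene on chromosome 1, had 311 counts in wild type, at least 130-fold lower, and a mean of 2.12 CPM in the MLL3/4 dCD line. Of the 42, 29 had a higher mean in the MLL3/4 dCD line than in wild type.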
